A study of Mus musculus with 21 samples.

Results

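The genes described here are the Wnt ligands, the Frizzled receptors, the secreted inhibitors of the Sfrp and Dkk families and 6 intracellular or surface regulators and targets of the pathway. They were taken by symbol from a table of 34478 genes: every Wnt, Fzd, Sfrp and Dkk gene with a number in its name, and Axin2, Lef1, Tcf7, Lgr5, Rnf43 and Znrf3. The rule uses names alone, although it was set with earlier results of these data known, and gave 43 genes, of which 34 were expressed, that is, they reached a normalized count of 10 in 3 or more samples, among 19300 expressed genes in all. These 34 were 13 of 19 ligands, 9 of 10 receptors, 6 of 8 inhibitors and 6 of 6 targets and regulators.

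RNA-seq was performed on 6 murine pancreatic ductal adenocarcinoma (PDAC) cell lines, #3, #4, #6, #7, #9 and #10, each grown from the tumour of a different mouse. The mice carried Ptf1awt/Cre and, on both alleles, Trp53loxP/loxP. Cre is expressed from the Ptf1a locus, which is active in the developing pancreas, so that all groups share the loss of Trp53. Parental cells (6 samples) had not been treated. Resistant cells (6) were raised in increasing doses of trametinib, an inhibitor of the kinase MEK, and were kept in 100 times the IC50 of their line. Cells of the same resistant cultures that were grown without the drug are named by their drug-free passages, P5 (3 samples, from lines #3, #7 and #9) and P12 (6). For P5 of lines #7 and #9 the sample descriptions give 12 passages and the sample titles P5, and the titles are followed here. Resistant cells were harvested in the drug and the other states without it, so resistance and the presence of the drug cannot be told apart. Each line gave 1 library per state, and lines are the replicates. The estimated depth was 24.0 to 42.5 M reads (M for mega) per library, and 3 reads, the lowest level taken as detectable, corresponded to 2.32 to 4.07 normalized counts, which covers counting error only.

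As background, Wnt ligands are lipid-modified secreted proteins that bind Frizzled receptors, together with Lrp5 or Lrp6 in the canonical branch, and so keep β-catenin from being degraded. β-catenin then activates target genes such as Axin2 with DNA-binding proteins of the TCF/LEF family, while other ligands act through β-catenin-independent branches. Sfrp proteins bind ligands outside the cell, and most Dkk proteins act on the co-receptors. Rnf43 and Znrf3 remove Frizzled receptors from the surface unless R-spondins and Lgr receptors stop them. In the adult pancreas the pathway is known for low activity in resting tissue, and some pancreatic tumours make their own ligands or depend on ligands from the stroma.

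Some of these genes differed between resistant and parental cells of the same lines. Transcripts of the ligands Wnt2b and Wnt9a, the secreted inhibitor Sfrp4 and the receptor Fzd6 rose in resistant cells. Transcripts of the receptor Fzd5 and the transcription factor Tcf7 fell. At P12, Fzd5 and Tcf7 rose again and Wnt2b and Wnt9a fell again, and no expressed member passed the test between P12 and parental cells. In bulk RNA, fewer cells of a type and less RNA per cell cannot be told apart. Here a gene is called, or said to rise or fall, where limma gave a Benjamini-Hochberg adjusted p below 0.01 together with a change of more than 1 on the log2 scale in either direction. Of the calls in this paragraph, only those of Fzd5, of Sfrp4 and, against parental cells, of Tcf7 held when each line was left out in turn. With only P12 and resistant samples in the fit, no member was called between them. A fold change is the difference of log2(normalized count + 1), which understates the change of low genes.

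Promoter sequences are shown for 2 ligands that were high in the same resistant cultures (Wnt9a and Wnt11), for the receptor that fell (Fzd5) and for the widely used target gene (Axin2). They are the 250 bases before the RefSeq start on the build GRCm38.p6, read in the direction of the gene, with a match to a TCF/LEF motif in capitals. The Wnt9a promoter lay at chr11:59306680-59306929 (+ strand), the Wnt11 promoter at chr7:98834862-98835111 (+), the Fzd5 promoter at chr1:64737751-64738000 (- strand) and the Axin2 promoter at chr11:108920099-108920348 (+).
Wnt9a: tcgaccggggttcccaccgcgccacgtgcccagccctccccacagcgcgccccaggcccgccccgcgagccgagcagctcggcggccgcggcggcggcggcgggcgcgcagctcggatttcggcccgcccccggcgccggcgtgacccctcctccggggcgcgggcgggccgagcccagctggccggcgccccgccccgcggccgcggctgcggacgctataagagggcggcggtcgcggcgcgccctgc
Wnt11: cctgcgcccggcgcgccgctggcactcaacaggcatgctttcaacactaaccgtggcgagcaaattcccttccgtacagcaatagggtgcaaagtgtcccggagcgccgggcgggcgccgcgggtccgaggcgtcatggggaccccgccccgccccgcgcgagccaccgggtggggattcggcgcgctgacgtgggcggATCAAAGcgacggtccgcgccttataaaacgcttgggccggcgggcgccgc
Fzd5: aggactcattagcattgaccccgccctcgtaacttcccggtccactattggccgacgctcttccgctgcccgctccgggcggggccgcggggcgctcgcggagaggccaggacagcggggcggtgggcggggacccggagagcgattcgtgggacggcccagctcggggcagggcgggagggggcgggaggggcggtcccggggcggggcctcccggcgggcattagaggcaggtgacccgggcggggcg
Axin2: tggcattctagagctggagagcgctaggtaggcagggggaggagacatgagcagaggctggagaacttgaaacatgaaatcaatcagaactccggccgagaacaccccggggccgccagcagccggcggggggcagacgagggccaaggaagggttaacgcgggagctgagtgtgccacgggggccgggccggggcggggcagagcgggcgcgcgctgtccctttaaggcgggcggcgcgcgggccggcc

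The motifs searched on both strands were CTTTGAT and CTTTGAA for TCF/LEF and TGANTCA for AP-1, a factor downstream of MEK and ERK. Promoters were found for 29 of the 43 genes. The capitals in the Wnt11 promoter are CTTTGAT on the opposite strand, 51 to 45 bases before the start. Wnt11 has a promoter of another start at chr7:98838595-98838844 (+), not shown, which held none of the motifs. The promoter of Wnt2b, a ligand high in the same resistant cultures as Wnt11, is not shown and also held none of them. Wnt5b held CTTTGAT 71 to 65 bases before a start and TGANTCA in the promoter of another start, and Dkk1 held CTTTGAA 117 to 111 bases before its start. These 29 genes have 37 promoters, of which 3 held CTTTGAT or CTTTGAA, against 7.48% of all 32851 mouse promoters of the same length. TGANTCA was found in 1 of the 37 and in 6.75% of all promoters. The other members with a promoter sequence held none of these letters in the window, from which nothing follows about binding elsewhere.

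Of the 13 expressed ligands, Wnt2b and Wnt9a were called higher in resistant than in parental cells, Wnt11 was added with the cell line as a block, and none was called lower. Scaled by length (normalized counts per kb of merged exons), the 19 ligands together summed to 533 to 1568 in parental, 1151 to 5055 in resistant, 436 to 1083 in P5 and 276 to 2539 in P12 cells. The sum was higher in resistant than in parental cells in 5 lines and lower in line #9 (1568 parental, 1151 resistant). Wnt7a was the ligand with the highest level per kb in 4 of 6 parental samples, where it made up 90.9% of the sum in line #3, 56.6% in line #4, 67.3% in line #7 and 81.5% in line #10. In resistant cells Wnt7a led in no line: Wnt9a led in lines #3 and #4, Wnt10a in #6 and #7, Wnt10b in #9 and Wnt4 in #10. At P12 each of the 6 lines had a different leading ligand, and Wnt7a led only in line #10 (76.5% of the sum).

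**Figure D1:**
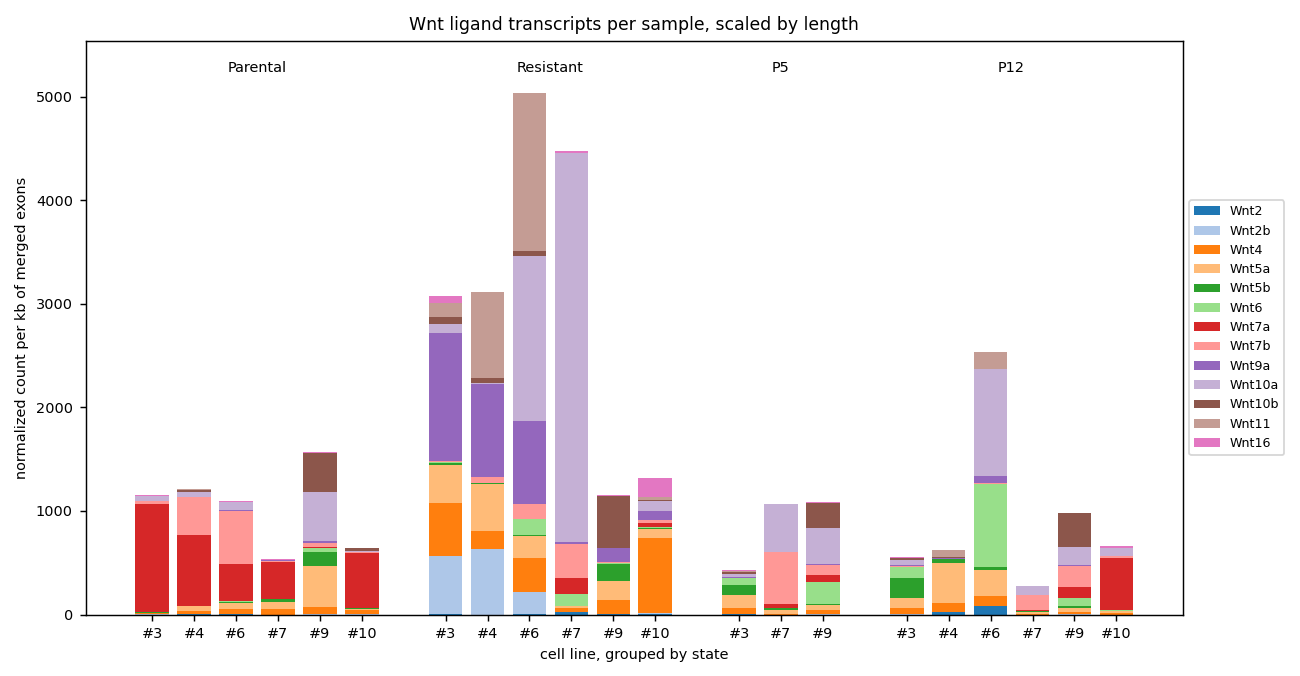
Normalized counts per kb of merged exons of the 13 expressed Wnt ligands (stacked, 1 colour per gene) in each of the 21 samples, grouped by state. Wnt7a makes up most of the bar in parental lines #3, #4, #7 and #10, while the leading ligand differs between resistant lines, up to Wnt10a at 3752 per kb in resistant line #7.

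In the comparison of resistant with parental cells, 6 of the 34 members were called (17.6%), where 5.3% of all expressed genes were. Of the members, 4 rose (2.57% of all genes did) and 2 fell (2.73%). The median size of the log2 fold change was 1.73 among the members and 0.50 among all genes, and at an unadjusted p below 0.05 there were 15 members, 9 higher and 6 lower, against 29.2% of all genes. With the cell line as a block, which compares each resistant culture with its own parental line, 9 members were called (26.5%) against 10.5% of all genes. The block added Axin2, Wnt11 and Dkk2. The same direction was seen in all 6 lines for 5 members that were higher (8.99% of all genes) and 5 that were lower (9.49%). The samples of both states did not overlap for 4 members, Wnt2b, Fzd5, Tcf7 and Dkk2 (5.99% of all genes). In the values below, lines come in the order #3, #4, #6, #7, #9 and #10, and for P5 #3, #7 and #9.

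Wnt2b, a ligand best known from mesenchyme and able to act through β-catenin (chr3:104945272-104961921, - strand), was at or under the level of 3 reads in all parental samples. Parental values were 2.00, 1.80, 0, 0, 2.62 and 1.63 normalized counts, and resistant values were 2375, 2638, 883, 9.08, 33.5 and 44.8. Every resistant sample lay above every parental sample, and lines #3, #4 and #6 were far above the other three resistant lines. P5 values were 12.3, 0 and 7.41, and P12 values 5.22, 1.20, 11.2, 1.02, 13.2 and 0.825. The mean of the resistant samples, 997, was at least 329-fold higher than the mean parental level of 3 reads. This was a log2 fold change of 6.67 ± 1.20 (SE, n = 6 lines, adjusted p = 0.00118), and the adjusted p rose to 0.0123 when line #6 was left out. From resistant to P12 cells the level fell by 5.54 ± 1.20 on the log2 scale (adjusted p = 0.00852, 0.00275 with the block). That call was lost without line #3 (adjusted p = 0.0512), #4 (0.0588), #6 (0.0358) or #10 (0.0287). With the block it was lost without line #3 (0.0225), #4 (0.0148) or #6 (0.0102).

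Wnt9a, a ligand with roles in joint and skeletal development (chr11:59306928-59333552, + strand, promoter shown above), had parental values of 12.1, 21.8, 49.3, 12.3, 80.6 and 4.92. Resistant values were 4119, 2997, 2672, 47.8, 448 and 286. The resistant sample was the higher one in all 6 lines, but resistant line #7 lay below the parental samples of lines #6 and #9, so that the groups overlapped. P5 values were 27.1, 3.10 and 22.4, and P12 values 11.4, 12.1, 205, 3.07, 21.7 and 6.65. The log2 fold change of resistant against parental cells was 5.17 ± 1.07 (SE, adjusted p = 0.00318, with the block 0.000184). Without line #3, #4 or #10 the adjusted p was 0.0309, 0.0228 or 0.0142, whereas with the block the call held without each line. From resistant to P12 cells Wnt9a fell by 5.50 ± 1.07 on the log2 scale (adjusted p = 0.00407, with the block 0.000261), in 6 of 6 lines. Without the block, leaving out line #3 (0.0376), #4 (0.0344), #9 (0.0109) or #10 (0.0178) ended this call.

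Wnt11, a ligand mostly linked to β-catenin-independent signalling (chr7:98835112-98855195, + strand, promoter shown above), rose by the fit with the block alone. Its parental values were 2.53, 16.0, 4.32, 0.897, 6.76 and 0, and its resistant values 570.5, 3457, 6295, 9.31, 15.8 and 91.4. It was higher in the resistant sample of all 6 lines, most of all in #3, #4 and #6, the same lines in which Wnt2b and Wnt9a were highest. P5 values were 42.8, 6.66 and 3.85, and P12 values 14.6, 281, 688, 0, 0 and 0. Resistant against parental cells gave a log2 fold change of 5.88 ± 1.79 (SE, adjusted p = 0.0314), and with the block the adjusted p was 0.000914 and stayed below 0.01 without each line. Between P12 and resistant cells the log2 fold change was -4.33 ± 1.79 (adjusted p = 0.175, with the block 0.0124), which was not called.

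Wnt7a, a ligand of epithelia, had the largest negative log2 fold change of the 34 members without being called. Parental values were 3316, 2175, 1152, 1139, 27.6 and 1665, and resistant values 4.10, 1.35, 13.1, 475, 0 and 109. The resistant sample was the lower one in 6 of 6 lines, but parental line #9 lay below resistant lines #7 and #10. The log2 fold change was -5.93 ± 1.87 (SE, 95% confidence interval -9.83 to -2.02, adjusted p = 0.0369, with the block 0.0214). P12 values were 4.37, 0, 0, 16.3, 332 and 1610.1, and P5 values 3.59, 97.8 and 189. At P12 Wnt7a was thus near its parental level in line #10 and at or near the detectable limit in lines #3, #4 and #6.

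The other ligands were not called in any comparison of states. Wnt4, which acts in kidney and gonad development, ranged from 42.3 to 295 in parental and from 171 to 3068 in resistant cells and was higher in 5 of 6 lines (log2 fold change 2.55 ± 0.88, adjusted p = 0.0545, with the block 0.0211). Wnt6 was at 0 in 4 parental samples and ranged from 1.27 to 348 in resistant and from 2.27 to 1745 in P12 cells. Wnt10a reached 3933 and 9259 in resistant lines #6 and #7 but was at 2.48 in resistant line #9, where the parental value was 1167. Wnt5a, the best-known ligand of β-catenin-independent signalling, ranged from 46.6 to 3585 over all samples, and Wnt5b from 2.08 to 502. Wnt7b ranged from 0 to 2484, Wnt10b from 0 to 1717, Wnt16 from 1.72 to 802 and Wnt2 from 0 to 186. For all of these ligands except Wnt4, the share of the variance between lines was larger than that between states. The number of lines, larger than that of states, favours this.

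The 6 ligands under the expression limit were Wnt1, Wnt3, Wnt3a, Wnt8a, Wnt8b and Wnt9b. Wnt3a, the ligand most used to stimulate the canonical branch in culture, was listed at 0 in all 21 samples. Wnt3 reached 147 in resistant line #3 and at most 8.38 elsewhere, and Wnt1 reached 40.7 in resistant line #6. The highest values of Wnt9b, Wnt8a and Wnt8b were 5.15, 4.08 and 1.36.

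Among the receptors, Fzd5 fell in every resistant culture and rose in every P12 culture. Fzd5 (chr1:64730558-64737751, - strand, promoter shown above) binds several canonical ligands and is known from pancreatic tumours with inactive Rnf43, which can depend on it. Parental values were 4312, 6209, 4354, 5780.2, 3516 and 7652, and resistant values 748, 1720.3, 435, 271, 393 and 960.0. The groups did not overlap, the highest resistant value (line #4) being below the lowest parental one (line #9). P5 values were 2648, 4589 and 1988, and P12 values 4081, 5546, 3365, 4181, 1844 and 3276. Every P12 and P5 sample lay above every resistant sample, and line #9 was the lowest in parental, P5 and P12 cells alike.

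Fzd5 fell by 3.04 ± 0.37 on the log2 scale from parental to resistant cells (SE, adjusted p = 4.3e-05) and rose by 2.50 ± 0.37 from resistant to P12 cells (adjusted p = 0.000571). Both calls held when each line was left out in turn. Between P12 and parental cells the log2 fold change was -0.54 ± 0.37 (95% confidence interval -1.32 to 0.24, adjusted p = 0.501). From resistant to P5 cells it was 2.22 ± 0.46 (adjusted p = 0.0148), which was called with the block only (2.51, adjusted p = 0.00271). That last call was lost without line #3 (0.0246), #7 (0.0154) or #9 (0.0283).

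Fzd6, a receptor linked to planar cell polarity (chr15:39006034-39038188, + strand), had parental values of 895, 1753, 1982, 1514, 3438 and 1307. Resistant values were 3314, 3392, 8689, 3085, 10094 and 5397, higher than parental in 6 of 6 lines. P5 values were 4274, 1586 and 1877, and P12 values 3506, 7736, 4380.3, 2285, 2828 and 3330.0. Only parental line #9 overlapped the resistant range, and P12 cells spread from the parental into the resistant range. The log2 fold change of resistant against parental cells was 1.60 ± 0.38 (SE, adjusted p = 0.00767, with the block 0.00483). This call was lost without line #3 (0.0222), #4 (0.0136), #6 (0.0403), #7 (0.0111) or #10 (0.0412) and held without #9 (0.00843). Between P12 and resistant cells the log2 fold change was -0.45 ± 0.38 (95% confidence interval -1.23 to 0.34, adjusted p = 0.570).

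Scaled by length, Fzd5 was the highest Frizzled in 5 of 6 parental samples and in no resistant sample. Its level was 624 to 1107 per kb in those 5 parental lines. In resistant cells Fzd6 was highest in lines #6, #7 and #10 (1803, 640 and 1120.3 per kb), Fzd4 in #3 and #4 (1576 and 767 per kb), and Fzd2 in #9 (3543 per kb). At P12 Fzd6 led in 3 lines, Fzd2 in 2 and Fzd5 in 1. The sum over all 10 receptors was 1826 to 3552 per kb in parental and 1121 to 7594 in resistant cells, so that the ranges overlapped.

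The other receptors were not called between states. Fzd4 ranged from 399 to 1832 in parental cells and reached 10589, 5157 and 5988 in resistant lines #3, #4 and #6, but lay at 871, 211 and 769 in resistant lines #7, #9 and #10. Fzd2 was highest in resistant line #9 (12979) and ranged down to 443. Fzd1 ranged from 250.3 to 3120.2, Fzd7 from 245 to 4491 and Fzd3 from 6.54 to 784. Fzd8 ranged from 4.09 to 555 and Fzd9 from 1.21 to 69.5. Fzd10 was not expressed, with its highest value (17.2) in parental line #6.

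Of the inhibitors, Sfrp4 rose and Dkk2 fell by the fit with the block. Sfrp4, a secreted Frizzled-related protein (chr13:19623104-19632994, + strand), had parental values of 14.1, 25.7, 18.7, 27.4, 215 and 11.9. Resistant values were 734, 2521, 8409, 6291, 141 and 8162. It was higher in the resistant sample of 5 lines and lower in that of line #9, whose parental level was the highest of the 6. P5 values were 48.7, 91.0 and 76.6, and P12 values 90.9, 141, 714, 26.7, 91.1 and 167. The difference to parental cells was 6.23 ± 0.94 on the log2 scale (SE, adjusted p = 0.000282), and the call held without each line, with its lowest adjusted p (3.1e-05) without line #9. From resistant to P12 cells it was -4.13 ± 0.94 (adjusted p = 0.0121, with the block 0.0116), lower in 6 of 6 lines but not called.

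Dkk2, which blocks the Lrp5 and Lrp6 co-receptors in most settings (chr3:132085292-132180304, + strand), had parental values of 22.2, 57.2, 85.0, 18.4, 1379 and 13.1. Resistant values were 1.03, 4.07, 4.79, 7.12, 10.0 and 6.19, all below all parental ones. P5 values were 16.2, 64.1 and 50.1, and P12 values 41.3, 536, 432, 45.0, 97.8 and 21.6. Every P12 and P5 sample again lay above every resistant sample. The log2 fold change was -3.35 ± 0.97 in resistant against parental cells (adjusted p = 0.0245, with the block 0.00768) and 4.11 ± 0.97 in P12 against resistant cells (0.0147, with the block 0.00419). With the block, the fall held only without line #10 (0.00937) and was lost without #3 (0.0372), #4 (0.0189), #6 (0.0278), #7 (0.0114) or #9 (0.0131). The rise at P12 held without #9 (0.00207) or #10 (0.00717) and was lost without #3 (0.0279), #4 (0.0243), #6 (0.0253) or #7 (0.0113).

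The remaining inhibitors were not called between states. Dkk1, the classical target-gene inhibitor, ranged from 4.09 to 386 in parental cells, from 0 to 7.08 in resistant cells and from 1.21 to 186 at P12, and was highest in P5 of line #7 (554). Its log2 fold change in resistant against parental cells was -3.01 ± 1.32 (adjusted p = 0.131). Dkk3 ranged from 0 to 1688 with the highest value in parental line #9, Sfrp1 from 0 to 4362 and Sfrp2 from 0 to 1086. Sfrp2 reached 528, 97.4 and 1086 in resistant lines #3, #4 and #6 and at most 19.7 in the other resistant lines. Dkk4 and Sfrp5 were not expressed, with highest values of 3.31 and 13.5.

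**Figure D2:**
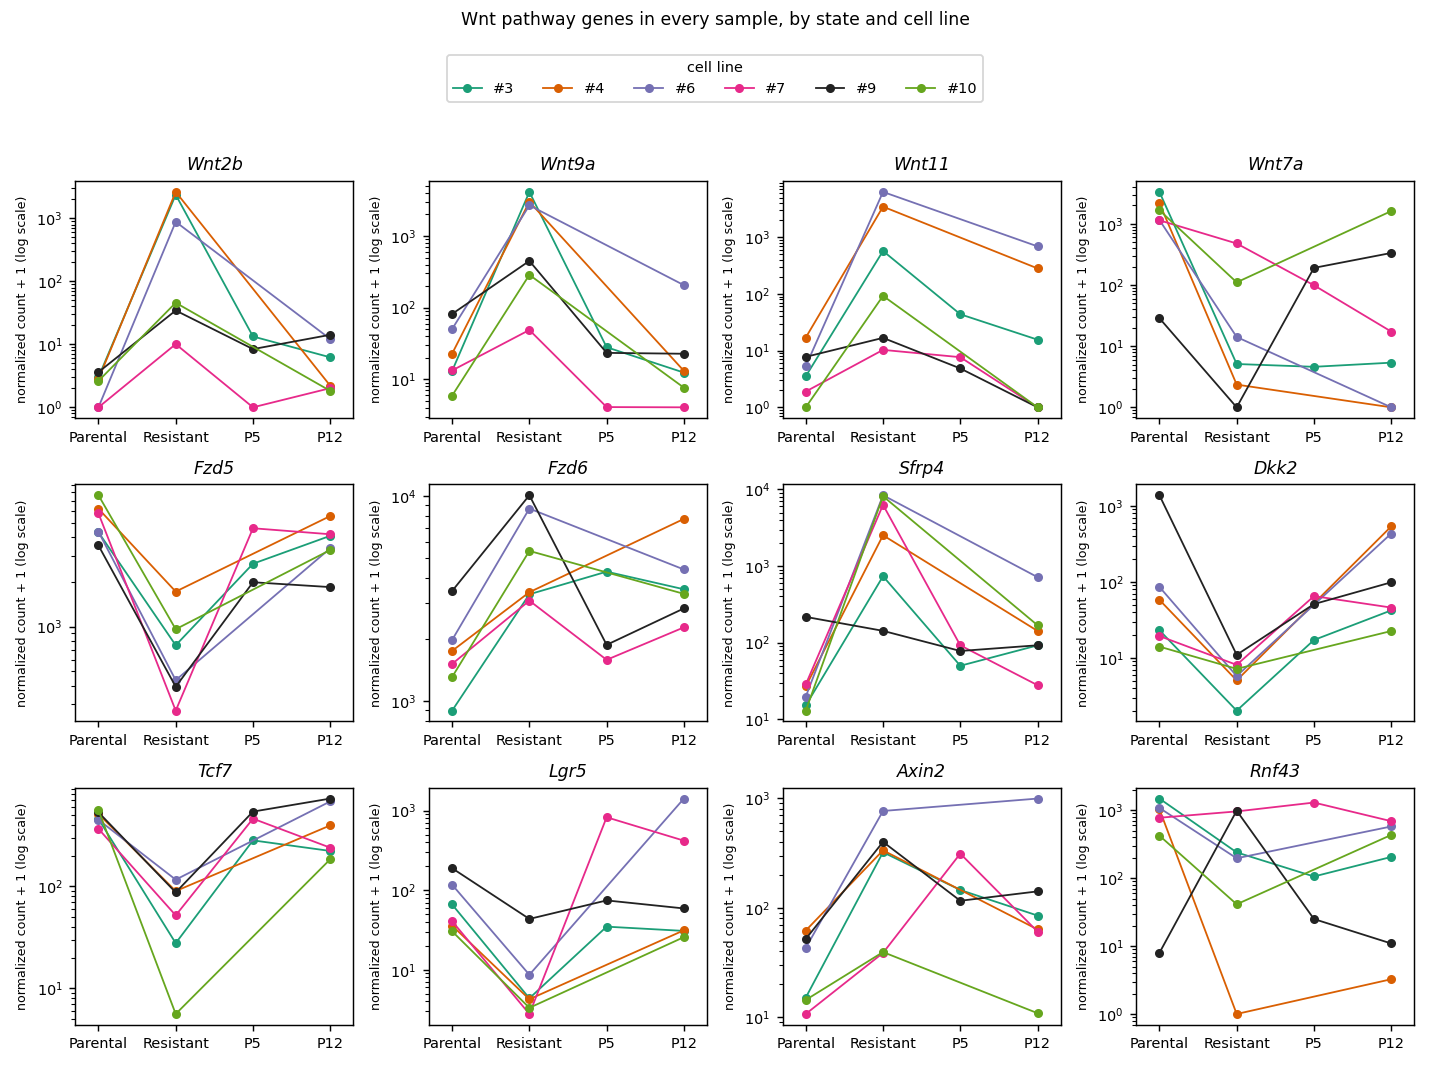
Normalized counts plus 1 (log axis) of 12 members in parental, resistant, P5 and P12 cells, with 1 line and colour per cell line and 1 point per sample. Wnt2b, Wnt9a and Wnt11 peak in resistant cells and are highest there in lines #3, #4 and #6, while Fzd5, Tcf7 and Dkk2 are at their lowest in the resistant sample of each line.

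Among the targets and regulators, the transcription factor Tcf7 and the target gene Axin2 differed in opposite directions. Tcf7, a TCF/LEF protein also known from T cells (chr11:52252371-52283014, - strand), had parental values of 458, 512, 448, 366, 532 and 559, a narrow range. Resistant values were 26.6, 88.8, 115, 50.9, 86.1 and 4.58, and no resistant sample overlapped a parental one. P5 values were 281, 460.3 and 540.0, and P12 values 221, 395, 680.2, 238, 726 and 183. P5 and P12 samples were all above the resistant samples, and lines #6 and #9 were above their parental level at P12.

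Tcf7 fell by 3.43 ± 0.56 on the log2 scale in resistant against parental cells (SE, adjusted p = 0.000572), a call that held without each line. At P12 it rose by 3.00 ± 0.56 against resistant cells (adjusted p = 0.00334, with the block 0.000718). Without the block, this rise was lost without line #3 (0.0225), #4 (0.0150) or #7 (0.0154), and with the block it held without each line. Between P5 and resistant cells the log2 fold change was 3.23 ± 0.69 (adjusted p = 0.0181), called only with the block (0.00954). The latter call held without line #10 (0.00154) and was lost without #3 (0.0961), #4 (0.0192), #6 (0.0138), #7 (0.0859) or #9 (0.0485). Between P12 and parental cells the log2 fold change was -0.43 ± 0.56 (95% confidence interval -1.61 to 0.75, adjusted p = 0.745).

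Axin2 (chr11:108920349-108950783, + strand, promoter shown above), a scaffold of the β-catenin destruction complex and a target gene of β-catenin, had parental values of 14.0, 60.8, 41.8, 9.65, 50.7 and 13.3. Resistant values were 321, 334, 767, 37.6, 399 and 38.3, higher in 6 of 6 lines. P5 values were 144, 312 and 115, and P12 values 83.7, 62.3, 996, 59.4, 140.1 and 9.83. Resistant lines #7 and #10 lay inside the parental range, and P12 of line #6 was the highest sample of all. Axin2 had a log2 fold change of 2.88 ± 0.91 (SE, adjusted p = 0.0363), called with the block only (adjusted p = 0.00382). With the block it was lost without line #3 (0.0294), #4 (0.0105), #6 (0.0136) or #9 (0.0103). Between P12 and resistant cells the log2 fold change was -1.11 ± 0.91 (95% confidence interval -3.00 to 0.78, adjusted p = 0.555).

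Lgr5, an R-spondin receptor and stem cell marker of the intestine (chr10:115450311-115587780, - strand), had parental values of 65.2, 35.0, 116, 39.8, 188 and 29.5. Resistant values were 3.38, 3.26, 7.66, 1.78, 42.6 and 2.32, lower in 6 of 6 lines, with line #9 inside the parental range. P5 values were 33.8, 826 and 73.5, and P12 values 29.8, 30.4, 1419, 419, 58.0 and 24.7. Lines #6 and #7 thus exceeded their parental level at P12. The log2 fold change was -3.32 ± 1.00 in resistant against parental cells (adjusted p = 0.0297, with the block 0.0106, not called). In P12 against resistant cells it was 3.95 ± 1.00 (adjusted p = 0.0221), called with the block only (0.00746). That call held without line #9 (0.00495) and was lost without #3 (0.0253), #4 (0.0228), #6 (0.0373), #7 (0.0187) or #10 (0.0222).

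Rnf43 and Znrf3, ubiquitin ligases that remove Frizzled receptors, behaved unlike each other. Znrf3 ranged only from 328 to 1499.8 over all samples, with a log2 fold change of -0.16 ± 0.27 in resistant against parental cells (95% confidence interval -0.73 to 0.41, adjusted p = 0.749). Rnf43 ranged from 0 in resistant line #4 to 1484 in parental line #3. In line #9 Rnf43 was at 6.94 in parental and at 984 in resistant cells, against the direction of lines #3, #4, #6 and #10, and in line #7 it was at 774 and 959.8. Lef1 was low, from 2.49 to 116, with a log2 fold change of 0.43 ± 0.65 (adjusted p = 0.711).

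**Figure D3:**
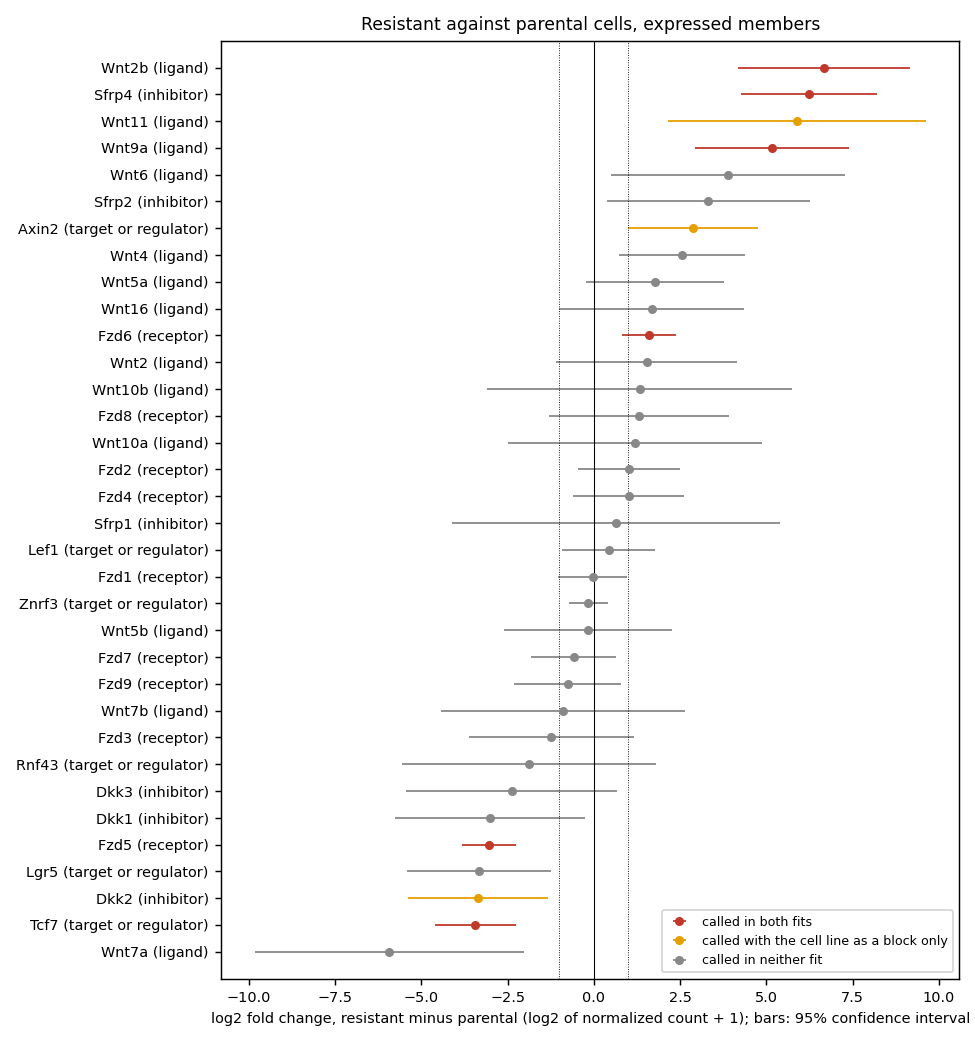
Log2 fold change of resistant against parental cells for the 34 expressed members (points, with 95% confidence intervals as bars), ordered by size and coloured by whether limma called them in both fits, under the block only, or in neither. The intervals of Fzd5 (-3.82 to -2.27) and Tcf7 (-4.61 to -2.25) are narrow and lie below -1, and those of Wnt10b (-3.10 to 5.75) and Sfrp1 (-4.12 to 5.39) span 0.

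The comparison of P12 with resistant cells asked which differences went back without the drug. It called 4 members (11.8%), where 2.13% of all genes were called. The members Fzd5 and Tcf7 rose (1.28% of all genes did), and Wnt2b and Wnt9a fell (0.85%). Samples of P12 and resistant cells did not overlap for 3 members, Fzd5, Tcf7 and Dkk2 (2.45% of all genes). These are 4 of the 6 genes called in resistant against parental cells, and since both comparisons use the same resistant samples the overlap is no separate evidence. With the block 6 members were called (4.52% of all genes), with Dkk2 and Lgr5 as additional rises. When only resistant and P12 samples were fitted, without the spread of the other states, no member was called.

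In P12 against parental cells limma called 0 members without the block (0.114% of all genes) and 0 with it (0.523% of all genes), with 4 and 5 members at an unadjusted p below 0.05 (15.3% and 23.8% of all genes). The intervals of single genes were wide, for example -9.42 to -1.61 on the log2 scale for Wnt7a, so that these tests do not show equal levels. In P5 against resistant cells, with 3 P5 samples, 0 members were called (0.378% of all genes), with 10 members at an unadjusted p below 0.05 (15.4% of all genes). Without the block, P5 of lines #3, #7 and #9 is set against all 6 lines of the other state, so differences between lines enter the fold change. For Fzd8 it was -3.06, while the mean difference within the 3 lines was -1.69. With the block 3 members were called in P5 against resistant cells (0.611% of all genes), Fzd5 and Tcf7 as higher and Wnt9a as lower. The latter had a log2 fold change of -5.36 and an adjusted p of 0.00771, which rose above 0.01 when any 1 of the 6 lines was left out, to between 0.0126 without #6 and 0.0647 without #3. Against parental cells P5 gave 0 calls (0.0259% of all genes), with 2 members at an unadjusted p below 0.05 (10.4% of all genes). Against P12 it gave 0 (0.0% of all genes), with 0 members at an unadjusted p below 0.05 (0.674% of all genes).

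**Figure D4:**
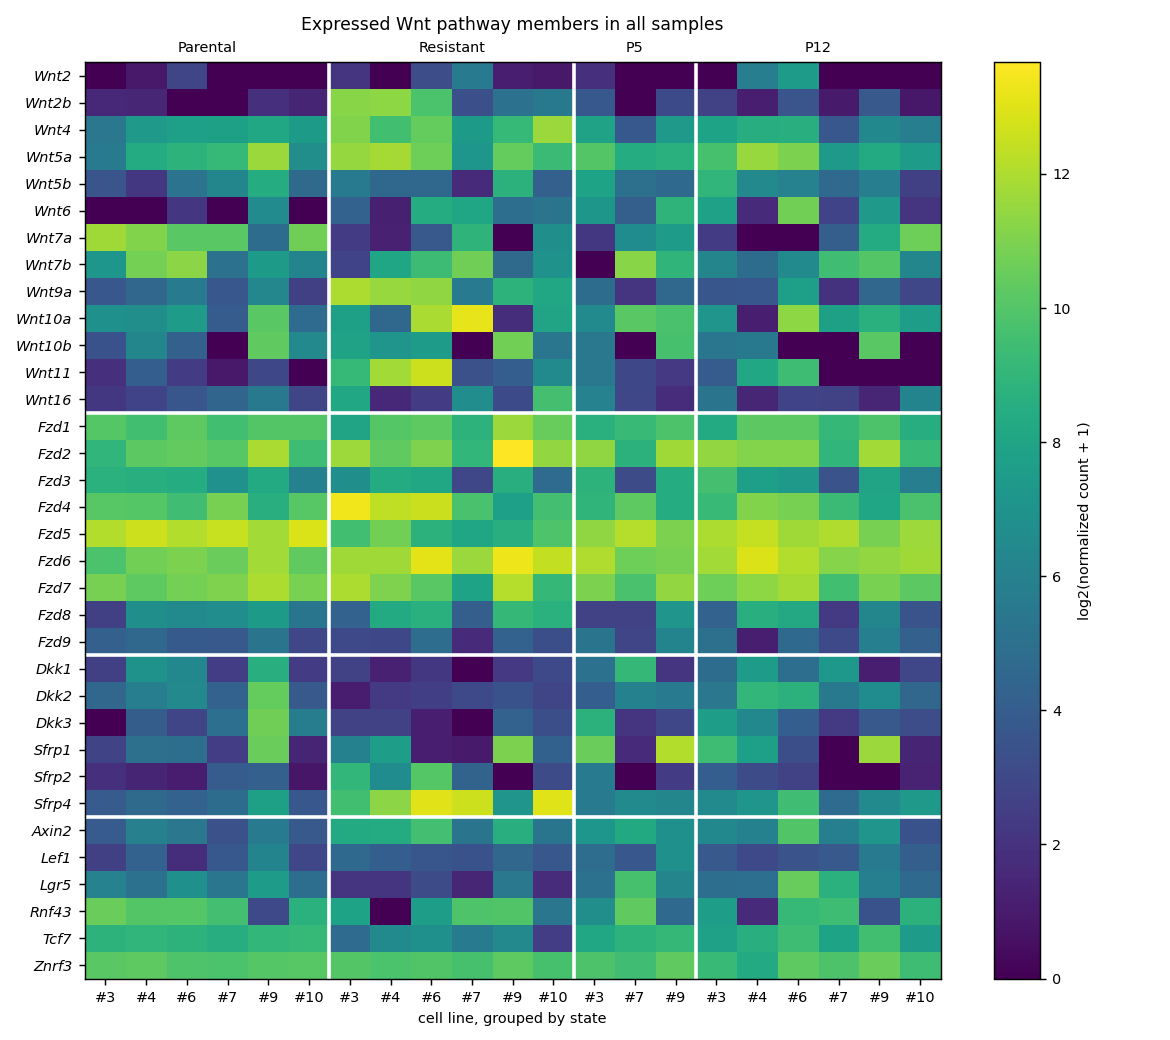
Log2 of normalized count plus 1 (colour) for the 34 expressed members (rows, grouped as ligands, receptors, inhibitors, and targets and regulators) in the 21 samples (columns, grouped by state). Fzd5 and Tcf7 are darker in all 6 resistant samples than in the other states, and Sfrp1 and Wnt10b are bright in every sample of line #9.

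Some members differed between these lines. The samples of a line are its states and not independent cultures, so the test below concerns these lines only. Its p-values do not measure the spread between cultures of a line. In a model with state and line, the limma F-test for the line called 4 of 34 members (11.8%; 7.62% of all genes), at an adjusted p below 0.01 and a range between line means above 1 on the log2 scale. Wnt10b had the widest range (10.23, adjusted p = 0.000708) and was highest in line #9, with 834 to 1717 in its 4 samples, and at 0 in all 4 samples of line #7. Sfrp1 likewise was highest in line #9 (1469 to 4362) and lowest in line #7 (0 to 4.61), with a range of 10.03 (adjusted p = 0.000859). Fzd3 was highest in line #3 and lowest in line #7 (range 4.38, adjusted p = 0.00128). Wnt11 was highest in line #6 and lowest in line #7 (range 6.51, adjusted p = 0.00709), and its lines were farther apart in resistant cells (9.31 to 6295) than in parental cells (0 to 16.0). Whether the differences between lines depend on the state was not tested. Without line #7, and likewise without line #9, 0 members were called, and 2 were called without the P5 samples.

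In parental, resistant and P12 samples, a member's variance was divided into shares between lines (median 37.1%) and between states (median 14.6%). The line share was the larger one in 22 of 34 members. There were more lines than states, which makes a larger line share likely even without any effect. These shares therefore do not show whether line or state mattered more. The state share was the larger one for Fzd5 (81.8%), Tcf7 (70.9%), Sfrp4 (70.5%), Wnt2b (67.6%), Wnt9a (65.5%) and 7 others. Axin2 and Wnt11 had larger shares between lines (49.0% and 46.6%) than between states (35.8% and 38.3%). Line means were highest in line #6 for 11 members and in line #9 for another 11, and lowest in line #7 for 12. The same was not counted over all expressed genes, so these counts are not read as a trait of the members.

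**Figure D5:**
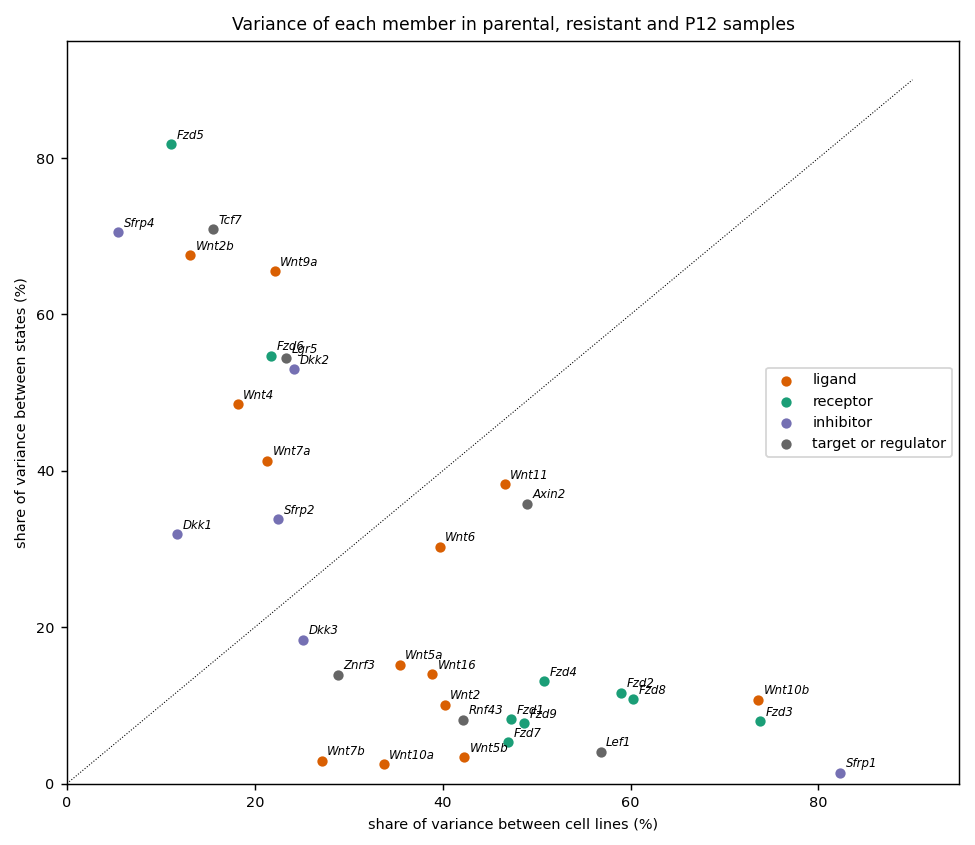
Share of the variance of log2(normalized count + 1) between states (y axis, %) against the share between cell lines (x axis, %) for each expressed member, coloured by role, in the 18 parental, resistant and P12 samples. The dotted line marks equal shares, which are not adjusted for the numbers of lines and states. Fzd5 is at the top with 81.8% between states, and Sfrp1 at the far right with 82.3% between lines.

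Other genes of the pathway, 66 in number and taken from lists of co-receptors, secretion factors, R-spondins, other inhibitors, destruction complex members, nuclear factors, further targets and planar cell polarity genes, were tested in the same fit. Of the 63 that were expressed, 4 were called in resistant against parental cells (6.35%, near the 5.3% of all genes), and 8 with the block (12.7%, near the 10.5% of all genes). Wls, which carries Wnt proteins to the cell surface, rose from a median of 6226 to 21160 (log2 fold change 1.77 ± 0.29, adjusted p = 0.000480). Porcn, which attaches the lipid to Wnt proteins and is the other gene of the secretion list, had medians of 1695 and 142 and was lower in resistant cells in 5 of 6 lines (-3.16 ± 0.89, adjusted p = 0.0215). It was called with the block only (0.00655). Daam2, a formin that binds Dishevelled, rose from a median of 11.9 to 6744 (8.34 ± 1.17, adjusted p = 0.000158) and had a median of 2037 at P12. Ccnd1, the cyclin D1 gene and a target of several pathways, had medians of 25316 and 4852 and fell by 2.66 ± 0.46 on the log2 scale (adjusted p = 0.000947). Ctnnb1, which encodes β-catenin, fell by 1.08 ± 0.24 (adjusted p = 0.00513), from a median of 36342 to 17770.1. The Ctnnb1 call held in only 1 of the 6 fits that left out a line, with an adjusted p of up to 0.0427, and those of Wls, Daam2 and Ccnd1 held in all 6. With the block, Rspo1, an R-spondin, was called higher (medians of 1.72 and 365, adjusted p = 0.00448), and the co-receptor gene Lrp5 (9666 and 4593, 0.00403) and the TCF/LEF factor gene Tcf7l2 (1244 and 621, 0.000368) were called lower. With a line left out under the block, Porcn was called in 1 of 6 fits (adjusted p of up to 0.0336), Rspo1 in 2 (up to 0.0300) and Lrp5 in 3 (up to 0.0236). Tcf7l2 was also called in 3, its adjusted p staying at or below 0.00355 while the change was no longer beyond 1 on the log2 scale. In P12 against resistant cells none of the 63 was called by limma (2.13% of all genes were), with 12 at an unadjusted p below 0.05 (19.8% of all genes). With the block 5 were called (7.94%, against 4.52% of all genes), Wls, the Wnt receptor gene Ryk and the formin gene Daam1 as lower and Ccnd1 and the co-repressor gene Tle2 as higher, and each of these calls held in only 1 of the 6 fits that left out a line (adjusted p of up to 0.0447).

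Markers of drug action and some markers of cell types differed between the same states. All 10 genes of a fixed list of ERK output were called lower in resistant than in parental cells, and all 10 were higher in P12 than in resistant cells, of which limma called 9 (10 with the block). The sum over 8 markers of ductal epithelium was 18366 to 284718 normalized counts in parental cells (median 249206) and 1693 to 211587 in resistant cells (median 62702), with 1 of the 7 expressed markers called lower (4 with the block). Of these markers Epcam was listed at 0 in all parental, resistant and P12 samples, although it is a defining marker of epithelium, and line #9 had the lowest sum in every state. The sum over 7 fibroblast markers was 93.2 to 10438 in parental cells (median 468), 487 to 503727 in resistant cells (median 30857) and 247 to 122847 in P12 cells (median 15844). The largest sum, in resistant line #9, was mostly Col1a1 (311103) and Col1a2 (174820). The expressed markers did not move together, with log2 fold changes of resistant against parental cells from -1.13 to 5.19. None of the 6 expressed fibroblast markers was called by limma (1 with the block). Sums over 4 endothelial markers were 36.8 to 166 in parental and 15.8 to 2753 in resistant cells, with 1 of 4, Tek, called higher. Tek alone was at 2512 in resistant line #6, the sample with the highest sum. Over 5 leukocyte markers the sums were 1225 to 3780 and 205 to 2919, with 1 of the 4 expressed, Cd14, called lower. The markers of neither list moved together, with log2 fold changes from -1.6 to 5.9 (endothelial) and from -5.5 to 2.9 (leukocyte). Sums over 4 acinar markers ranged from 0 to 932 over all samples, and the 1 expressed marker was not called. The part of these differences in the Wnt pathway results was not tested.

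Some values may include reads of overlapping genes. Exons of antisense genes overlap Fzd5 (Gm38058), Fzd6 (Gm26704), Axin2 (Gm11670), Wnt11 (Gm8398), Wnt7b, Wnt5a, Lef1 and Sfrp2. The libraries were stranded, but whether strand was used in quantification is not given in the sources used here.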

How the data were processed

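RNA-seq of 21 samples was analysed from 1 table of gene-level signal values, which the authors deposited as counts normalized in DESeq2 1.18 after adapter trimming, quantification with salmon 0.12 and import to genes (build mm10). These values are not raw counts, so no count model was run, and depth was estimated from the step between low values, on which 60.1% to 74.9% of them fell within 0.05 of a step. HiSeq and NovaSeq instruments were used without a record per sample, so no comparison within sequencing batches was made.

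Values were transformed as log2(value + 1). The 19300 genes that reached a value of 10 in 3 or more samples were tested with limma 3.58.1 (R 4.3.3) in 1 fit of 4 states without covariates, with empirical Bayes moderation with a trend and Benjamini-Hochberg adjustment over all of them. The fit with the cell line as a block was the alternative. States of a line are paired because they come from the same cell line, and the deviations of paired samples correlated at 0.008 to 0.52 (18 pairs, 17 of them above 0.1). The line was tested with limma's F-test. Levels per kb used merged exons of GENCODE M21, to whose annotation all 43 genes were matched by symbol. The scripts were tested on simulated data. Other settings were pseudocounts of 0.5 and 8, no filter, a filter on a mean of at least 100, upper quartile scaling, no trend, an adjusted p below 0.05, only the compared states, and each line left out in turn, the last also with the block, which was added after seeing the data.

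The members and gene lists were chosen with earlier results of these data known. Members called in any state comparison, without or with the block, are given in every sample and the other expressed members by range. Of the other pathway genes, those called in resistant against parental cells are named, without or with the block, and those the block added in P12 against resistant cells were named after their values were seen. Replicates are separate cell lines. Promoters are from RefSeq (GRCm38.p6). One part of the genotype shared by all groups is not reported here.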

Additional observations from a re-analysis of the deposited data

Results flagged for a closer look

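In groups of 6 samples, the gap of the highest or lowest sample to its nearest neighbour was compared with the range of the group (Dixon's test at its 95% limit). Of 102 groups tested (34 members in 3 states), 6 exceeded the limit, where chance flags about 5%. All 6 were in parental cells, and 4 of them concerned line #9. Flags were not counted over all expressed genes, so neither their number nor their place in line #9 is read as a trait of the members.

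In parental line #9, Wnt7a (27.6 normalized counts, next lowest 1140 in line #7) and Rnf43 (6.94, next lowest 422 in line #10) were far below the other lines. In the same sample Sfrp4 (215, next highest 27.4 in line #7) and Wnt6 (96.7, next highest 3.46 in line #6) were far above them. This sample also had the lowest summed ductal epithelium markers (18366) and the highest summed fibroblast markers (10438) of the parental group, whose part in these values was not tested. Without line #9, Sfrp4 in resistant against parental cells had an adjusted p of 3.1e-05 in limma (0.000282 with it) and Wnt7a one of 0.0305 (0.0369 with it).

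Wnt4 was low in parental line #3 (42.3, next lowest 159.7 in line #4). Wnt2 was highest in parental line #6 (6.16, next highest 0.907 in line #4), a level close to that of 3 reads.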

How the results depend on the processing

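The number of members called by limma depended on the setting. Shares of all expressed genes are given above for the fits without and with the block and for the F-test between lines. For the other settings no such shares are given, so those counts are not read as a trait of the members. In resistant against parental cells it was 6, and 11 at an adjusted p below 0.05, 9 with the line as a replicate block, 4 to 6 with a line left out, and 6 to 9 with a line left out under the block. In P12 against resistant cells it was 4, and 8 at an adjusted p below 0.05, 6 with the block, 0 with only the compared states, 1 to 5 with a line left out (1 without #3 or #4, 2 without #10), and 3 to 7 with a line left out under the block. In P5 against resistant cells it was 0, and 3 with the block, 2 with upper quartile scaling, 4 at an adjusted p below 0.05, 0 to 1 with a line left out, and 0 to 2 with a line left out under the block. Between lines it was 4, and 8 at an adjusted p below 0.05, 2 without the P5 samples and 0 to 4 with a line left out (0 without #7 or #9). Of the other pathway genes 4 were called in resistant against parental cells, and 8 at an adjusted p below 0.05, 8 with the block, 3 to 5 with a line left out, and 4 to 9 with a line left out under the block. In the state comparisons the block removed no call that limma made without it for the members or the other pathway genes, and added only those named above. The cause of these shifts was not tested, other than the looser threshold and the smaller number of samples.

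Over the 18 log2 fold changes of named members, 162 values under other settings held 13 that lost and 19 that gained a call, and 216 values with a line left out held 27 and 18, and 0 of either reversed. The Fzd6 call was lost without the filter (adjusted p = 0.0115), with upper quartile scaling (0.0135), without the trend (0.0105) and with only the compared states (0.0145). The Wnt2b call at P12 was lost with a pseudocount of 0.5 (0.0103) or 8 (0.0128), without the filter (0.0128), with the filter on a mean of 100 (0.0174), without the trend (0.0101) and with only the compared states (0.0537), and under the block without line #3, #4 or #6. The 6 lines with 1 library per state limit what could be called, and values of under about 4 normalized counts cannot be told from 0.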

Other observations

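Of the 19 mouse Wnt genes, 8 lie in 4 neighbouring pairs less than 100 kb apart, and expression within a pair was unequal. Wnt9a (chr11:59306928-59333552, + strand) lies 16.2 kb from Wnt3a (chr11:59248033-59290752, - strand). Wnt9a reached 4119 normalized counts in resistant line #3, while Wnt3a was listed at 0 in every sample. Wnt10b (chr15:98770712-98778150, - strand) lies 11.7 kb from Wnt1 (chr15:98789857-98793837, + strand). Wnt10b was at 1717 in resistant line #9, where Wnt1 was at 0, and Wnt1 was at 40.7 in resistant line #6, where Wnt10b was at 182. Wnt9b and Wnt3 lie 24.3 kb apart on chromosome 11, and in resistant line #3, the sample with the highest level of each, they were at 5.15 and 147.

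Wnt6 (chr1:74771892-74785322, + strand) and Wnt10a (chr1:74791516-74804179, + strand) lie 6.19 kb apart in the same direction. Both were high in P12 of line #6 (1745 and 2554 normalized counts) and in P5 of line #9 (472 and 862). Both were low in P12 of line #4 (2.27 and 1.20). Among the samples of line #9, both were lowest in the resistant one (29.4 and 2.48), where Wnt6 was still above its median over all samples (18.4). In parental lines #3, #4 and #6 they differed, with Wnt6 at 0, 0 and 3.46 and Wnt10a at 114, 109 and 179. In resistant line #7 Wnt10a had its highest value (9259) and Wnt6 was at 257. These values are a description and were not tested.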
